A study of Mus musculus with 16 samples.

Results

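The 10 plasma cell differentiation genes described here are Prdm1, Irf4, Irf8, Xbp1, Sdc1, Jchain, Tnfrsf17, Tnfrsf13b, Ell2 and Mzb1. Their chromatin was read from the peak lists of 8 ATAC-seq libraries, in which a transposase cuts and tags open DNA. Peaks sharing or adjoining a base in any of the 8 lists were merged into 16566 combined regions. A region belonged to a gene as a promoter region when its centre lay no more than 1000 bp before or 100 bp after the start of any annotated transcript. It belonged as an other region when it lay in the gene body or within 10 kb of it. By this rule 12 of the 16566 regions belonged to 9 of the 10 genes, 6 of them promoter regions and 6 other regions, and Mzb1 had none.

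All 8 libraries were made from splenic B cells of C57BL/6 mice that carried CD23-Cre, a transgene that deletes floxed DNA in mature B cells. In the 4 Brg1 fl/+ libraries 1 allele of Brg1, the ATPase of the SWI/SNF (BAF) chromatin remodelling complex, was floxed, and in the 4 Brg1 fl/fl libraries both were. The controls thus also carried Cre and 1 floxed allele. The cells were separated with CD43 beads and activated in culture by LPS (10 µg/mL) together with IL-4 (20 ng/mL). The sample labels give 72 hours of culture and the series design gives 96 hours. Each library came from 50000 cells, and neither the ages nor the number of mice behind the 4 libraries of a genotype are given by the labels, so that p-values measure the spread between libraries.

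Plasma cells are the antibody-secreting end stage of the B cell lineage. In the accepted scheme, IRF4 rises in the activated B cell and switches on Prdm1, whose product Blimp-1 silences B cell genes, and XBP1 then expands the secretory apparatus, while IRF8 belongs to the B cell and germinal centre side of the switch. LPS drives mouse B cells to divide and, in part, to become plasmablasts, and IL-4 directs them to switch to IgG1.

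The lists held between 6271 and 14614 peaks. Summit heights, the number of reads stacked over a summit, were recovered from the deposited fold and p-value of each peak, and were divided by a scaling factor for each library from 0.565 to 1.92. These factors were set over regions with a peak in all 8 lists, so that the median ratio of height to the region's geometric mean was equal between libraries. A value so treated is called a scaled height. Between 52.0% and 97.2% of all promoter regions, but only 16.6% to 75.3% of all other regions, had a peak in a given library, with fl/+ library 1 at the top of both ranges. Promoters of 3 B cell markers, Ms4a1, Pax5 and Cd74, had a peak in all 8 libraries, those of Ebf1 and Cd79a in some, and those of Cd79b, Cd22 and Blk in none. None of 15 promoters of T cell, NK cell, myeloid and erythroid markers had a peak in any library.

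**Figure D1:**
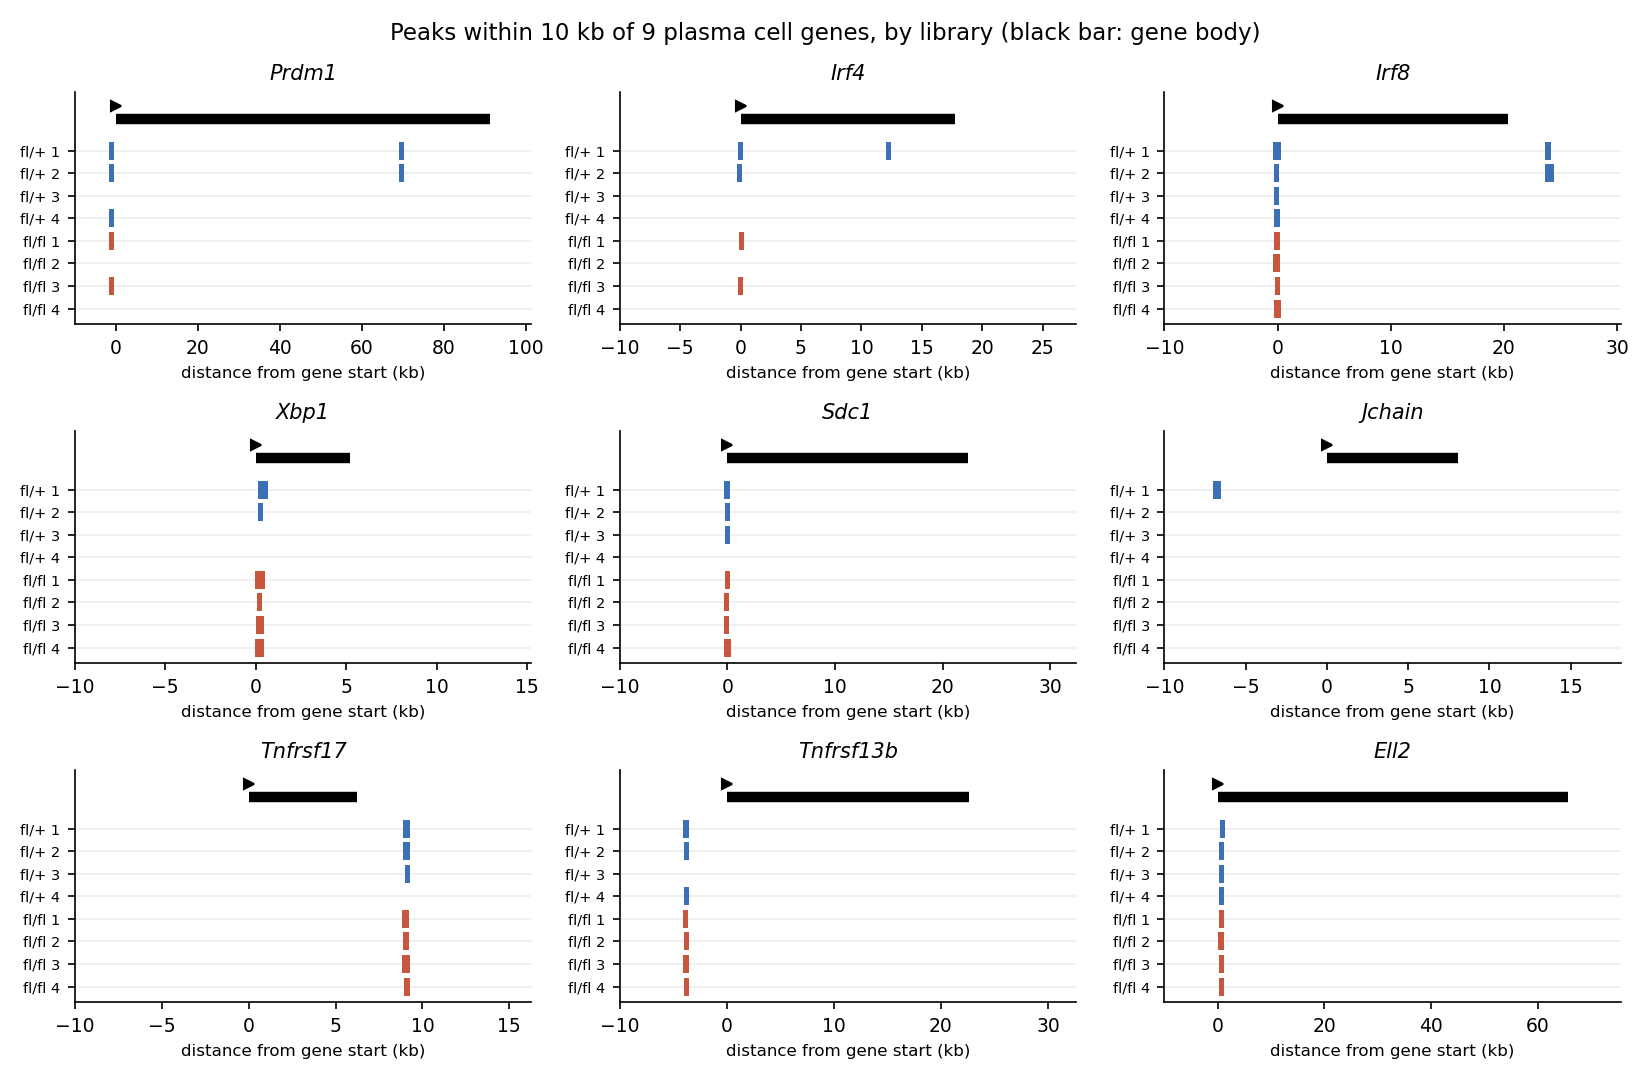
Peaks (coloured bars, blue for Brg1 fl/+ and red for fl/fl) within 10 kb of the 9 genes that had any, by library (rows), with the distance from the gene start in kb on the horizontal axis. The black bar is the gene body, transcribed to the right, and short peaks are widened to stay visible. Peaks sat at the gene start for Irf4, Irf8, Xbp1, Sdc1 and Ell2, and outside the gene for Jchain, Tnfrsf17 and Tnfrsf13b.

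Of the 10 genes, 6 had a promoter region in at least 1 library (Prdm1, Irf4, Irf8, Xbp1, Sdc1 and Ell2), beside 43.1% of the 21911 protein-coding genes. Only the promoters of Irf8 and Ell2 had a peak in all 8 libraries. Of the 12 regions, 5 had a peak in fewer fl/fl than fl/+ libraries, 4 in more and 3 in equally many. Over all 16566 regions, 47.2% had a peak in fewer fl/fl libraries and 16.7% in more. When every list was cut to the same number of peaks, 1 of the members had a peak in fewer fl/fl libraries and 3 in more. Over all regions the numbers were then 2076 fewer and 2206 more instead of 7813 and 2766. The direction over all regions thus changed with the cut, and what made the lists differ in length was not tested. In the lists as deposited, a difference of at least 2 libraries was seen at 2 of the 12 regions with fewer fl/fl peaks (14.8% of all regions) and at 1 with more (4.01%). None of the 12 had a peak in all 4 libraries of 1 genotype and none of the other, which held for 0.404% of all regions in favour of fl/+ and 0.169% in favour of fl/fl. A two-sided exact permutation test of detection called no region in the whole table after Benjamini-Hochberg adjustment (95 regions at an unadjusted p under 0.05), and the smallest p that 4 against 4 libraries allow is 0.0286.

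**Figure D2:**
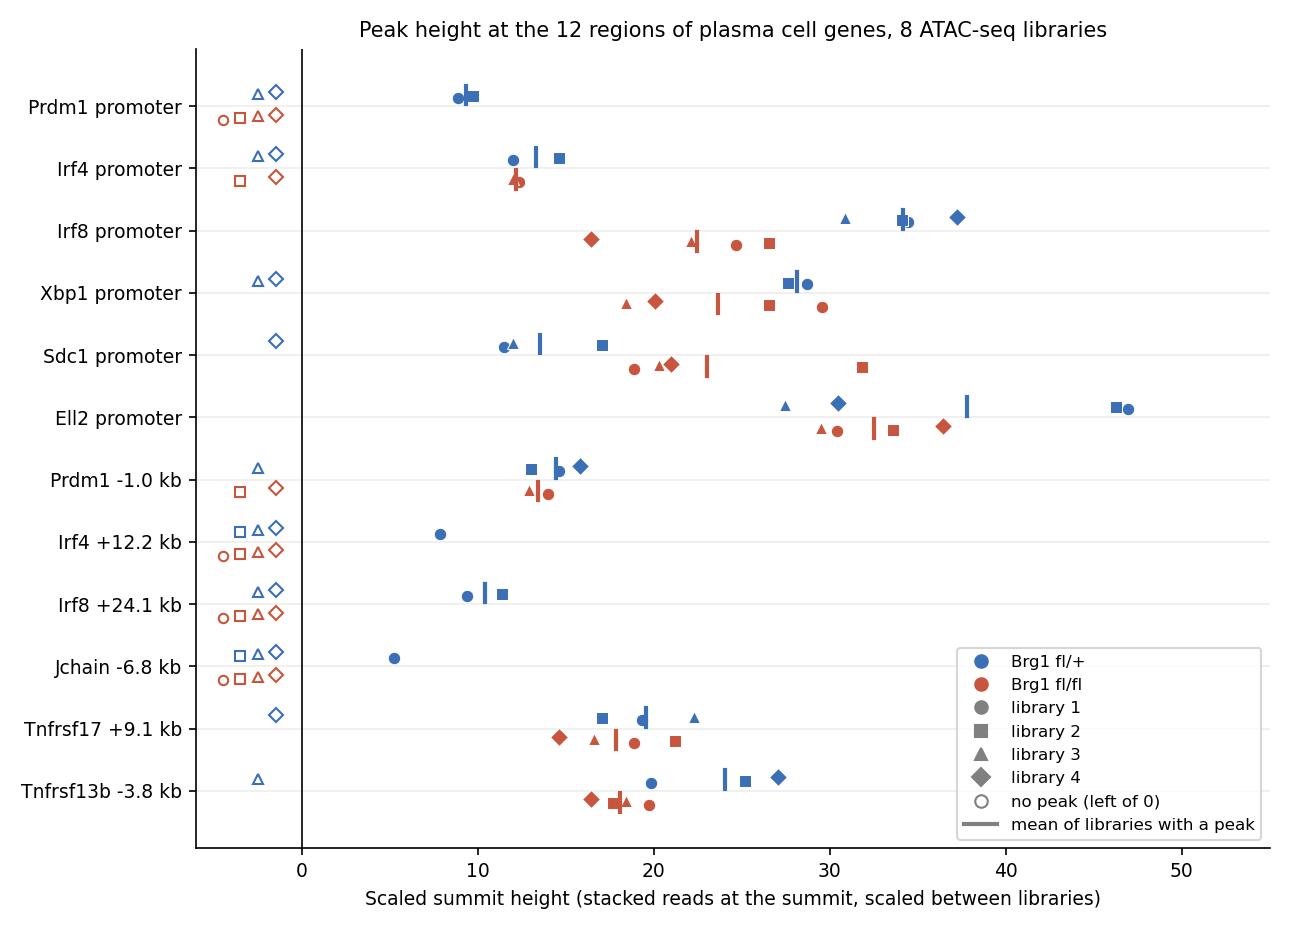
Scaled summit height (horizontal axis, stacked reads after scaling) at each of the 12 regions in the 8 libraries, blue for Brg1 fl/+ and red for fl/fl, with a marker shape for each library number and a vertical bar at the mean of the libraries with a peak. Open markers left of 0 are libraries without a peak. At the Irf8 promoter the highest fl/fl value of 26.5 lies below the lowest fl/+ value of 30.9. At the Sdc1 promoter, without a peak in fl/+ library 4, the lowest fl/fl value of 18.9 lies above the highest fl/+ value of 17.0. Of the 4574 regions with a peak in all 8 libraries, 7.56% had all fl/fl values below all fl/+ values, and 8.18% had them above.

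Prdm1, which encodes Blimp-1, had a weakly open start. The annotated gene lies on the minus strand at chr10:44437177-44528501, and the coding transcript ENSMUST00000039174.10 starts far inside it. The promoter region, chr10:44458637-44458931, lay at this inner start, 69717 bp from the outer one by its centre, with its summit 3 bases into the first exon of that transcript. It had a peak in fl/+ library 1 (scaled height 8.87) and fl/+ library 2 (9.74) and in none of the other 6 libraries. The second region, chr10:44529240-44529766, lay upstream of the outer start with its centre at -1002 bp, so that it just missed the promoter window. Its scaled heights were 14.6, 13.0 and 15.8 in fl/+ libraries 1, 2 and 4, and 14.0 and 12.9 in fl/fl libraries 1 and 3, with no peak in the other 3. Among libraries with a peak, the scaled heights of both genotypes overlapped. The deposited fold at this second region was 8.04 to 11.1 in fl/+ and 6.10 to 6.73 in fl/fl, a difference that was not tested at this region. The reference sequence of GRCm38 around the summits of the 2 regions is shown in the direction of the gene, with annotated UTR bases left out. These are the only sites with a called peak within 10 kb of the gene for the master regulator of plasma cells. Capitals mark motif matches, AP-1 (TGANTCA), an E-box (CAGGTG) and the reverse of the NF-Y box (CCAAT) at the inner start. Upstream of the outer start they mark GAAANNGAAA, the letters of an interferon-stimulated response element, overlapping GTGAAAG, a Blimp-1 core, then GGGCGG (SP1), CACGTG (E-box) and CCAAT. The stretch labelled outer start surrounds the upstream summit and does not reach the start itself.

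Prdm1 inner start, chr10:44458749-44458845, minus strand: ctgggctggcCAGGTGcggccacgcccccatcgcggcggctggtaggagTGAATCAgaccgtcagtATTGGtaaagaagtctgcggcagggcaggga
Prdm1 outer start, chr10:44529423-44529623, minus strand: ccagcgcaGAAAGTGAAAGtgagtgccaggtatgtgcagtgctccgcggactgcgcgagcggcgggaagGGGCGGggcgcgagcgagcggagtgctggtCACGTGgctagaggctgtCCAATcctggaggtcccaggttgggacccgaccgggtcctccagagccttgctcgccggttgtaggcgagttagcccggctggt

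The overlapping GAAANNGAAA and GTGAAAG matches began 92 and 88 bases before the upstream summit. GAAANNGAAA occurs, on either strand, within 100 bases of the summit of 3.24% of all other regions and 1.57% of promoter regions, and GTGAAAG in 3.35% and 2.17%. Both were found at no other region of the 10 genes. A match of letters does not show that a factor was bound.

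Irf4, the factor that starts the programme, had a promoter region at chr13:30748971-30749428 with scaled heights of 12.0 and 14.6 in fl/+ libraries 1 and 2, and 12.3 and 12.0 in fl/fl libraries 1 and 3. It had no peak in the other 4 libraries, 2 of each genotype, so that neither detection in the deposited lists nor scaled height set the genotypes apart. The deposited fold was 6.66 and 8.27 in fl/+ against 5.26 and 5.29 in fl/fl. With only peaks of a −log10 q of at least 10 counted, 2 fl/+ and 0 fl/fl libraries had a peak. The share of all regions with such a separation in fold is not given here. A further region in a coding exon of the gene (chr13:30761263-30761617) had a peak in fl/+ library 1 alone, at 7.83. Among the 15 motifs searched, the promoter summit held GGGCGG on both strands and, downstream, the letters TATAAA of a core promoter box, which occur within 100 bases of 2.38% of all promoter summits. The ratio of observed to expected CpG in the region was 0.380, beside a median of 0.817 for all promoter regions. The sequence is shown for these letters, which the Irf8 promoter described next also holds.

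Irf4 promoter, chr13:30749073-30749225, plus strand: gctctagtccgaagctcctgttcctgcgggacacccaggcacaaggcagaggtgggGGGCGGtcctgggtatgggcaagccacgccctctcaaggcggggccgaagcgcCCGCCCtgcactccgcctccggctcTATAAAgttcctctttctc

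Irf8, the counterpart of Irf4 that belongs to the B cell and germinal centre programme, was the 1 member region whose height differed between genotypes in the comparison of regions with a peak in all 8 libraries. Its promoter region (chr8:120735917-120736682, summit 50 bp upstream of the coding transcript start) had scaled heights of 34.4, 34.1, 30.9 and 37.2 in the fl/+ libraries and 24.6, 26.5, 22.1 and 16.4 in the fl/fl libraries. All 4 fl/fl values lay below all 4 fl/+ values, as they did at 7.56% of the 4574 regions compared. The fl/+ mean was 34.2 ± 2.59 (SD, n = 4) and the fl/fl mean 22.4 ± 4.40 (SD, n = 4). The recovered stacks behind them were 66, 42, 18 and 33 reads in fl/+ and 30, 15, 24 and 18 in fl/fl. The log2 difference, fl/fl minus fl/+, was -0.63 (SE 0.16, 95% interval -0.96 to -0.30), a ratio of 0.648, with an adjusted p of 0.0229 by limma over the 4574 regions. In that comparison 3.94% of regions were called lower in fl/fl and 4.66% higher (180 and 213 regions). Scaled by the background of each library instead, 4161 were lower and 20 higher, the median of all regions moved by -0.81, and Irf8, at -1.44, stood at -0.63 relative to that median. The deposited fold over local background gave the same order, 14.5, 14.8, 9.10 and 12.2 in fl/+ against 8.36, 6.35, 7.65 and 6.51 in fl/fl.

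The call on Irf8 was close to the threshold. It was lost, with adjusted p between 0.0516 and 0.0638, when fl/+ library 1, 2 or 4 or fl/fl library 3 or 4 was left out (log2 difference -0.48 without fl/fl library 4), and at 0.0719 with library 1 averaged with 2, and 3 with 4, within each genotype, since the labels do not tell whether libraries share a mouse. Heights of 2 libraries of 1 genotype varied by 0.758 to 1.22 times the variance of counting alone. In bulk chromatin, fewer cells with an open Irf8 promoter and a less open promoter in each cell cannot be told apart. The Cd74 promoter, a B cell marker, was also lower in fl/fl, with a log2 difference of -0.51 (SE 0.15, adjusted p = 0.0422 by limma, and 0.0505 over the 6506 regions described below), while those of Ms4a1 and Pax5 were not called (-0.12 and 0.02). The part of B cell content in the Irf8 difference was not tested.

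The Irf8 promoter sequence holds, around its summit, GGGANNNNCC (the letters of an NF-kB site, in 21.2% of all promoter regions), the reverse of CCAAT and of GGGCGG, and TATAAA 19 bases after it. The promoters of Irf8 and Irf4 were the only 2 member promoters with TATAAA in this window. A second Irf8 region, centred 24055 bp downstream of the start and beyond the end of the gene (chr8:120760013-120760813), had a peak in fl/+ libraries 1 and 2 (9.39 and 11.4) and in no fl/fl library. The letters of a PU.1 site (GAGGAAGT, reverse strand) lay 89 bases before its summit and are found near 3.76% of all other regions. These sequences are given because the promoter carries the height difference and the downstream site is the other region, outside a promoter, with the largest difference in detection.

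Irf8 promoter, chr8:120736208-120736357, plus strand: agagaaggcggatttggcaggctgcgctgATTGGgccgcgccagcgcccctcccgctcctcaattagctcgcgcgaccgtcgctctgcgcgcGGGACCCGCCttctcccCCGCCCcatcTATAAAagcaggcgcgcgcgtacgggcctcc
Irf8 downstream, chr8:120760331-120760531, plus strand: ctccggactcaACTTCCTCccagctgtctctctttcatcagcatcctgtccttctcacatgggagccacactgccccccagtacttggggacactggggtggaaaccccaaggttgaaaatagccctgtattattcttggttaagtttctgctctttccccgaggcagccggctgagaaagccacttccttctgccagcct

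**Figure D3:**
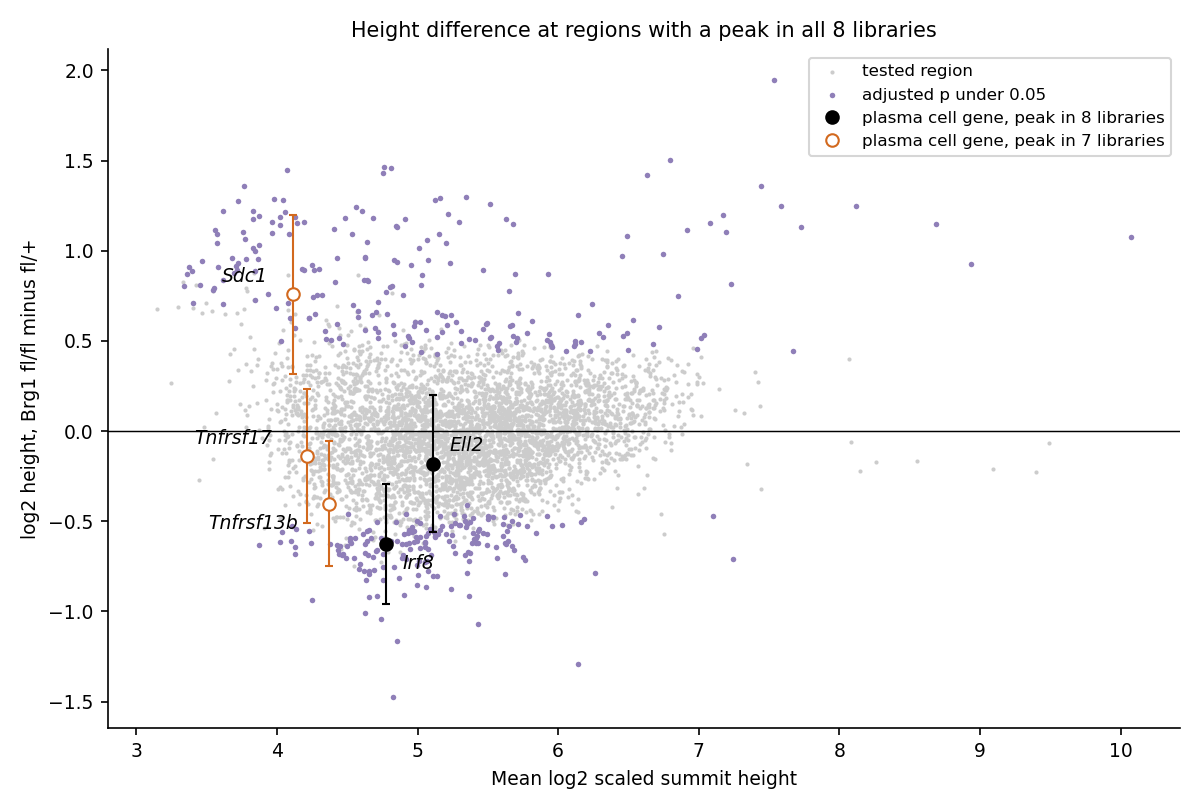
Log2 difference in scaled height, Brg1 fl/fl minus fl/+ (vertical axis), against mean log2 scaled height (horizontal axis) for the 4574 regions with a peak in all 8 libraries, purple where the adjusted p was under 0.05. Black points are the promoters of Irf8 (-0.63) and Ell2 (-0.18), and open points are regions with a peak in 7 libraries (Sdc1 0.76, Tnfrsf17 -0.14 and Tnfrsf13b -0.40), all with 95% intervals.

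Sdc1 encodes syndecan-1 (CD138), the surface proteoglycan by which plasma cells are recognised. Its promoter region, chr12:8770982-8771641, is also the promoter of Gm4755 by the same rule. The scaled heights were 11.5, 17.0 and 12.0 in fl/+ libraries 1 to 3, with no peak in fl/+ library 4, and 18.9, 31.8, 20.3 and 21.0 in fl/fl. The 4 fl/fl values thus lay above the 3 fl/+ values. The share of all regions with such a separation of 4 against 3 values is not given here. With 4 against 4 values it was 8.18% of the 4574 regions. As 1 library had no peak, the region did not enter the comparison above. In a comparison of 6506 regions with a peak in at least 3 libraries of each genotype, in which libraries without a peak were treated as missing, the log2 difference was 0.76 (SE 0.21, 95% interval 0.32 to 1.20), with an adjusted p of 0.0373 by limma. There 4.27% of regions were called higher and 4.66% lower, and 5 of the 12 member regions were tested. The call was lost (adjusted p 0.0576 to 0.127) when any 1 of fl/+ libraries 1 and 3 and fl/fl libraries 2, 3 and 4 was left out, at 0.188 on the deposited fold (log2 difference 0.38), and at 0.102 when the missing peak was set to the lowest height in its list, where the difference was 1.00. With the missing peak so set and the libraries averaged in the same pairs as for Irf8, the adjusted p was 0.327. Scaled by the background of each library instead, which moved the median of all regions by -0.85, the difference turned to -0.09, and was 0.76 relative to that median. The sequence is shown because this was the 1 member region called higher in fl/fl. Its capitals are GGGCGG, in 67.5% of all promoter regions, and the reverse of CCAAT.

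Sdc1 promoter, chr12:8771159-8771322, plus strand: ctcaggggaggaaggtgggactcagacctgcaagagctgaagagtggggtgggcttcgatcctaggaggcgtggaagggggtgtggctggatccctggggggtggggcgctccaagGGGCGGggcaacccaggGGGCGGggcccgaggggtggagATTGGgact

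Xbp1, the transcription factor of the unfolded protein response that builds the secretory apparatus, had a promoter region at chr11:5520614-5521320 with a peak in all 4 fl/fl libraries but in only 2 of the fl/+ libraries. The scaled heights were 28.7 and 27.6 in fl/+ libraries 1 and 2, and 29.6, 26.5, 18.4 and 20.1 in fl/fl. The genotypes overlapped in height. By exact permutation test, detection in 2 against 4 libraries has a p of 0.429, and the adjusted p was 1.

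Ell2, an elongation factor that favours the secretory form of immunoglobulin mRNA, had the promoter region with the highest mean height of the 10 genes (chr13:75707146-75708014, also the promoter of 1700037F03Rik). The scaled heights were 47.0, 46.3, 27.4 and 30.4 in fl/+ and 30.4, 33.6, 29.5 and 36.5 in fl/fl. The fl/+ libraries fell into 2 high and 2 low values, and all fl/fl values lay within their range. The log2 difference was -0.18 (SE 0.18, 95% interval -0.56 to 0.20), with an adjusted p of 0.576 by limma. The summits at Xbp1 and Ell2 lie in annotated UTR exons and their sequence is not shown. Within 100 bases of the summit, Ell2 held the CRE core TGACGT, which is recognised by ATF and CREB factors and occurs in 10.9% of all promoter regions, and both Xbp1 and Ell2 held CCAAT, in 33.5%.

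The 2 receptor genes for the survival factors BAFF and APRIL, Tnfrsf17 (BCMA) and Tnfrsf13b (TACI), had no promoter region. The region near Tnfrsf17 (chr16:11322657-11323116) lay beyond its end, 9075 bp from its start, and is the promoter of Snx29. Its scaled heights were 19.3, 17.0 and 22.3 in fl/+ libraries 1 to 3 and 18.9, 21.2, 16.6 and 14.6 in fl/fl, with a log2 difference of -0.14 (SE 0.17, adjusted p = 0.664 by limma over the 6506 regions). The region near Tnfrsf13b (chr11:61122635-61123245) lay upstream, with its centre at -3815 bp and in no annotated promoter. It had 19.8, 25.2 and 27.1 in fl/+ libraries 1, 2 and 4 and 19.7, 17.7, 18.4 and 16.4 in fl/fl. All 4 fl/fl values lay below the 3 fl/+ values, if narrowly (19.7 against 19.8). The share of all regions with such a separation of 4 against 3 values is not given here. With 4 against 4 values it was 7.56% of the 4574 regions. The log2 difference of -0.40 (SE 0.16, 95% interval -0.75 to -0.06) had an adjusted p of 0.135 by limma. With the missing peak in fl/+ library 3 set to the lowest height in its list, the difference was -0.034 (adjusted p = 0.976). The Tnfrsf13b sequence, shown as the most often detected region outside any promoter, holds GGGANNNNCC on both strands in overlapping positions, a motif found in 19.8% of all other regions. The stretch near Tnfrsf17 is the part of its summit window outside annotated UTRs, with the reverse of GGGCGG in capitals.

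Tnfrsf13b upstream, chr11:61123063-61123263, plus strand: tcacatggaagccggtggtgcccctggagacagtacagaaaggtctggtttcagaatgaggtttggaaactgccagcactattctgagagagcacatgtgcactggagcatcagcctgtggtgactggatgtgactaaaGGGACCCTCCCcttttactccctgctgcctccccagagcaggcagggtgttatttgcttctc
Tnfrsf17 downstream, chr16:11322972-11323040, plus strand: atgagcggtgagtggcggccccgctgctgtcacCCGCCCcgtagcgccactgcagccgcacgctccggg

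Jchain, which encodes the joining chain of polymeric antibody, had a peak only in fl/+ library 1, at a scaled height of 5.22, upstream of its start with the centre at -6776 bp (chr5:88534422-88534911), the lowest value among the 12 regions. Mzb1, an endoplasmic reticulum cochaperone of antibody assembly (chr18:35647267-35649367), had no peak within 10 kb in any library.

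Missing peaks were set beside the height seen in the other libraries. Only regions with a peak in at least 2 other libraries were used, which left out the Jchain region and the Irf4 region in a coding exon. For each library without a peak, the mean scaled height of the libraries with one, multiplied by the scaling factor of the library, gave the expected stack. Regions with an expected stack within 20% served for comparison. At the Prdm1 inner start the expected stacks were 5.26 to 11.3 reads, and 8.73% to 31.2% of like regions had a peak in the same libraries. At the Irf8 downstream region these shares were 11.1% to 37.7%, at the Irf4 promoter 17.7% to 45.8%, and upstream of Prdm1 21.4% to 52.5%. The part of depth in these absences was not tested. For the 2 fl/+ libraries without an Xbp1 peak the shares were higher, with 14.7 reads expected in library 3, where 68.8% of like regions had a peak, and 22.3 in library 4, where 83.5% had one. For Sdc1 and the Tnfrsf17 region in fl/+ library 4 the shares were 67.7% and 66.2%, and for the Tnfrsf13b region in fl/+ library 3, with 12.0 reads expected, the share was 53.7%.

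**Figure D4:**
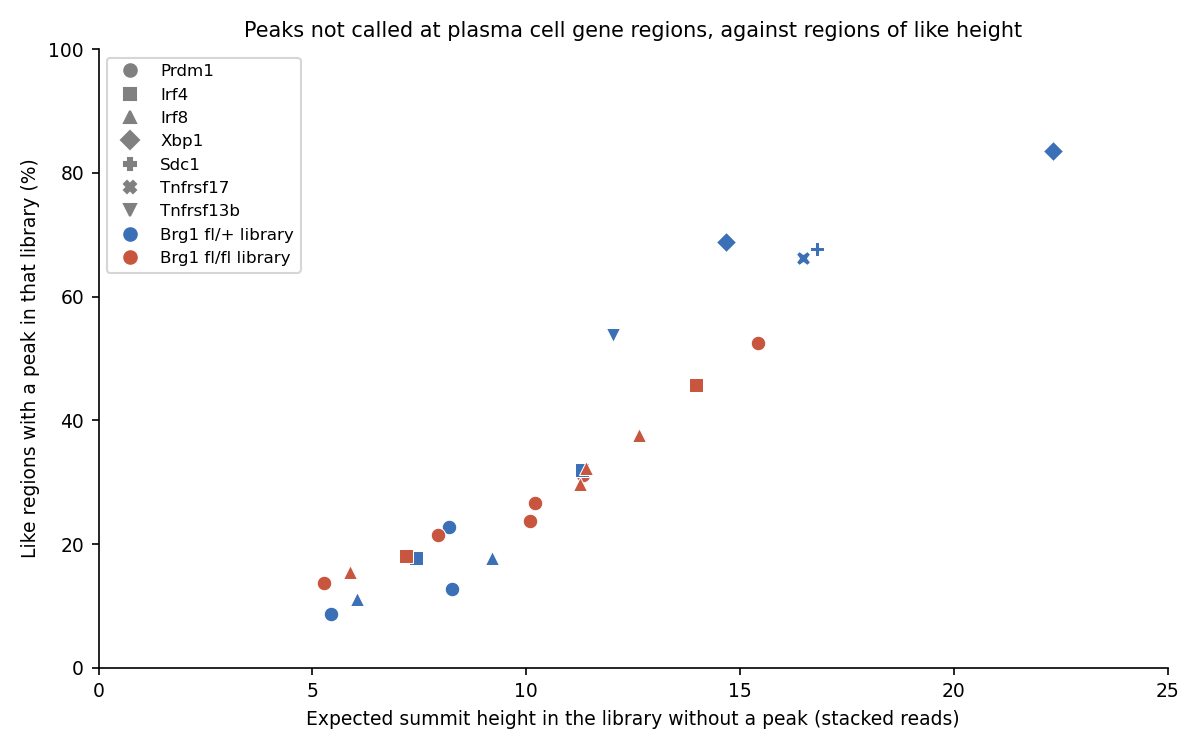
For each peak missing at a member region with a peak in at least 2 other libraries, the summit height expected from the other libraries (horizontal axis, stacked reads) against the percent of all regions of like expected height that had a peak in the same library (vertical axis), blue for Brg1 fl/+ and red for fl/fl libraries, with a marker for each gene. Most missing peaks lie at low expected height, and the 2 Xbp1 points at 68.8% and 83.5% are the highest.

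Of the 15 motifs, 4 had no match within 100 bases of any of the 12 summits on either strand: the ETS-IRF composite (GGAANNGAAA), the AP-1-IRF composite (TGANTCANNGAAA), the STAT6 letters TTCNNNNGAA and the octamer ATGCAAAT. Their shares over all regions were low as well, from 0% to 2.36% of promoter regions and 0.0835% to 4.06% of other regions. GGGCGG and CCAAT were each found at 7 of the 12 regions. Over all regions, GGGCGG occurred in 67.5% of promoter and 21.5% of other regions, and CCAAT in 33.5% and 21.3%. The 6 member promoter regions held 60.7% to 69.0% G or C, around the median of 65.1% for all promoter regions.

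Other genes of the same programme were taken as a list of 47, of which 34 had a promoter region, 17 of them in all 8 libraries. In fl/fl, 9 of the 34 had a peak in fewer libraries and 5 in more, beside 47.2% and 16.7% of all 16566 regions. The 34 are promoter regions, whereas the 16566 include 7236 other regions, and the shares over promoter regions alone are not given here. At Batf, the AP-1 factor that partners IRF4, all 4 fl/+ libraries had a peak (8.35, 17.0, 25.7 and 12.4) and no fl/fl library had one. Such a split held for 0.404% of all 16566 regions, and the test of detection called no region after adjustment. The lowest scaled heights in the fl/fl lists were 6.57 to 10.6. The stacks expected at Batf in the fl/fl libraries are not given here, and the part of depth was not tested. Id3, an inhibitor of E proteins, had 4 fl/+ peaks and 1 in fl/fl, and Myc had 2 in fl/+ and 4 in fl/fl. Bach2 had 3 fl/+ peaks and 1 in fl/fl, Mef2c 4 and 2, and Fcer2a and Prdx4 each 2 and 0. In the comparison of 4574 regions, 4.66% of all regions were called higher and 3.94% lower. Of the 17 genes of the list tested there, 1 was called higher and none lower. Their median log2 difference was 0.02, beside 0.00 over all regions. The gene called higher was Bcl6, the germinal centre repressor of Prdm1. Its scaled heights were 36.0, 37.3, 27.4 and 33.8 in fl/+ and 49.3, 44.2, 47.0 and 47.4 in fl/fl. The log2 difference was 0.49 (SE 0.14, adjusted p = 0.0362 by limma, and 0.0456 over the 6506 regions). Scaling by background, which moved the median of all regions by -0.81, left 20 regions called higher. The value of Bcl6 under that scaling, and with single libraries left out, is not given here. Its fl/fl values lay above all of its fl/+ values, which occurred at 8.18% of the regions compared.

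By function, 8 of 10 genes of the B cell programme that plasma cells silence had a promoter region. Of these, 4 had a peak in fewer fl/fl libraries and none in more. Over all regions, promoter and other together, 47.2% had a peak in fewer and 16.7% in more. Of 11 further plasma cell regulators, 10 had one (2 in fewer and 3 in more fl/fl libraries). Only 3 of 11 surface molecules had one, and Il21r, the IL-21 receptor, had 3 fl/+ peaks and none in fl/fl. Of 15 genes of secretion and endoplasmic reticulum stress, 13 had a promoter region and 9 had a peak in all 8 libraries, none of them called by height. Derl3 and Tent5c came nearest, with log2 differences of -0.37 (SE 0.14, adjusted p = 0.107 by limma) and -0.44 (SE 0.16, adjusted p = 0.0943).

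**Figure D5:**
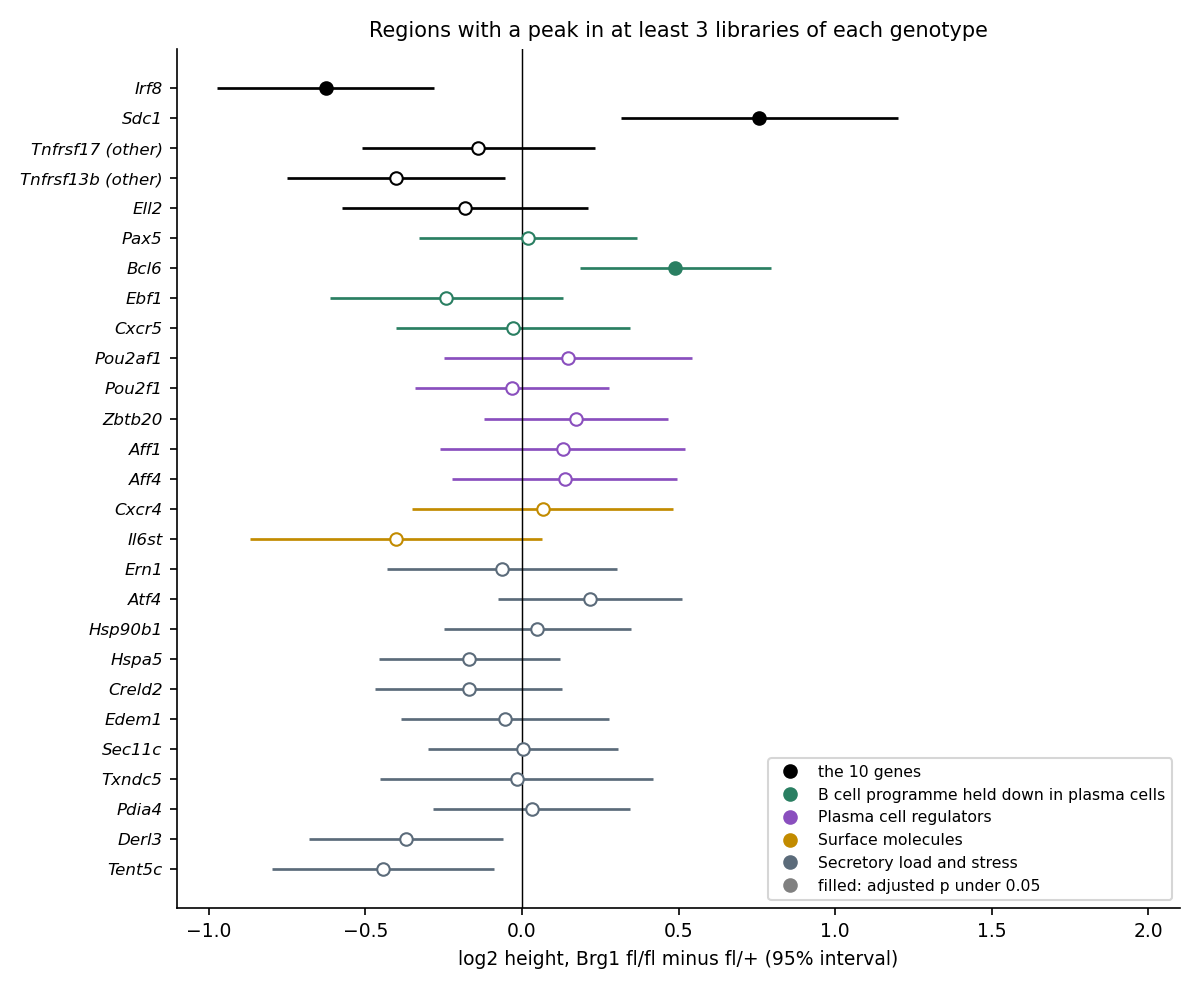
Log2 difference in scaled height, Brg1 fl/fl minus fl/+ (horizontal axis, with 95% intervals), for the 5 member regions and 22 genes of the wider list with a peak in at least 3 libraries of each genotype, coloured by function and filled where the adjusted p was under 0.05. Irf8 lies lowest, and Sdc1 and Bcl6 are the filled points to the right of 0.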

How the data were processed

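Splenic B cells of 8 ATAC-seq libraries, 4 per genotype, were analysed, and the 8 RNA-seq libraries of the series were not analysed here, so that deletion of Brg1 itself was not checked. The genes and lists were chosen with earlier results of these data known. The authors used Bowtie2 for alignment (genome mm10) and MACS2 for a separate peak list per library, and versions and options are not given in the sources used here. The deposited lists hold for each peak a fold ratio over local background, a −log10 p and a −log10 q value (at least 1.31). The deposited score is 10 times the −log10 q value cut to a whole number for display and was not tested. Total read depth is unknown.

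Whole-number summit heights were solved from the deposited fold and −log10 p for 99.9% of peaks, and scaled by the median of ratios over 4574 regions with a peak in all 8 libraries. Log2 scaled heights were compared with limma 3.58.1 (lmFit and eBayes, R 4.3.3) with Benjamini-Hochberg adjustment over all regions tested and a threshold of 0.05, without a pseudocount, and detection with a two-sided exact permutation test. The fit was tested on simulated data. Genes and starts were from GENCODE M21 and sequences from GRCm38, read with pysam 0.24.0. Motifs were searched on both strands within 100 bases of the highest summit. All member regions were named. Of the wider list, genes were named that were called, differed by at least 2 libraries in detection or came nearest to a call. These genes were chosen after their values were seen. Same-numbered libraries did not deviate together, so the numbers were not used as pairs. Leaving out libraries, other scalings, thresholds, windows and joined libraries were tried.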

Additional observations from a re-analysis of the deposited data

Results flagged for a closer look

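The scaled height of the Sdc1 promoter in fl/fl library 2, 31.8, stood apart from the other fl/fl libraries (18.9, 20.3 and 21.0), its gap to the nearest being a larger part of the range of the group than the 95% limit of Dixon's test allows. It was the only value to do so in 10 groups of 4 libraries, where chance gives about 1 in 20. Without this library the log2 difference at Sdc1 was 0.61 (adjusted p = 0.0698 by limma).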

How the results depend on the processing

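Scaling by background lowered the median of all regions by 0.81 (log2), with 4161 regions lower and 20 higher and 2 member regions lower. Regions called lower and higher numbered 61 and 74 on the deposited fold, 109 and 122 with missing peaks set to the lowest height, and 54 and 113 with libraries averaged in pairs (67.7% of calls higher, against 54.2%), and 303 were lower over regions in at least 3 libraries of each genotype, where 1 member was higher. With missing peaks set to the lowest height or with pairs, 0 members were called and Irf8 (-0.63) had an adjusted p of 0.0958 and 0.0719 by limma. With missing peaks so set, with or without pairs, the Tnfrsf17 region turned to 0.24, and by background Sdc1 turned to -0.091. Leaving out 1 library gave 67 to 182 regions lower, 115 to 250 higher, 0 to 1 member each way, and -0.70 to -0.48 for Irf8. With the replicate number as a block, 149 regions were lower and 177 higher, Irf8 had an adjusted p of 0.0350, and no member call changed. No fl/+ library correlated best with its own number (correlations -0.0611 to -0.00645), and the smallest exact p for detection was then 0.125.

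For detection, regions with fewer and more fl/fl peaks numbered 5115 and 999 with a −log10 q minimum of 10 (2 members more), 2076 and 2206 with equal numbers of peaks (1 member fewer), 1747 more with a minimum of 5, and 4414 more where peaks had to cover 50% of a region. Regions in every fl/+ and no fl/fl library numbered 36 at −log10 q 10, 36 with 50% cover and 440 with pairs joined, and the reverse 9 and 3 at −log10 q 5 and 10 and 268 with pairs (2 members more). Leaving out 1 library gave 4667 to 8995 fewer, 2453 to 4058 more, 69 to 286 and 31 to 63 in 1 genotype alone, and 3 to 6 members fewer and 2 to 5 more. Other member regions numbered 35 within 100 kb, and motif matches 16 within 50 bases instead of 28. The causes were not tested.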

Other observations

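Widening the distance from 10 kb to 100 kb, a choice made after seeing the data, added 29 regions, which may belong to other genes. Downstream of Prdm1 (chr10:44380588-44381151) a region in no annotated promoter had scaled heights of 6.78, 8.12 and 7.89 in fl/+ libraries 1, 2 and 4 and no peak in fl/fl. Around Irf8, 2 regions outside promoters (chr8:120701832-120702186 and chr8:120797259-120797751) had a peak in fl/+ libraries 1 and 2 only, at 8.87 and 5.68 and at 13.6 and 17.9, and a region upstream of it (chr8:120725291-120725749) had one in 2 libraries of each genotype. A region upstream of Tnfrsf17 (chr16:11248633-11249439) had a peak in 4 fl/+ and 2 fl/fl libraries. Beyond Ell2, the region chr13:75797718-75798673 had a peak in fl/+ libraries 1 and 2, at 22.4 and 16.2, and in no fl/fl library. The nearest regions to Mzb1 were promoters of other genes, among them that of Paip2 with a peak in 2 fl/+ and 4 fl/fl libraries. The 2 fl/+ libraries that carry most of these peaks had the longest lists.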
